A study of Callithrix jacchus with 20 samples.

Results

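The RNA of marmoset cells on their way from induced pluripotent stem cells (cjiPSCs) to primordial germ cell–like cells (cjPGCLCs) was examined for 10 genes that govern the G1 phase of the cell cycle. They are the D-type cyclins CCND1, CCND2 and CCND3, the E-type cyclins CCNE1 and CCNE2, the kinase CDK6, the inhibitors CDKN1A and CDKN1B, and the transcription factors MYC and MYCN. The genes were picked by symbol. All 10 had a row among the 25102 genes of the count table, and all 10 were among the 15797 genes with enough counts for the test. Their lowest count in any library was 32 reads, for CDKN1A.

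The libraries are taken to come from 1 line, DPZ_cjiPSC#2, which the study used unless otherwise stated, though the study adapted further lines to TESR. DPZ_cjiPSC#2 was made from foetal fibroblasts with transient plasmids whose reprogramming factors included human L-MYC. The results are thus read as those of a single line. The line was kept in TESR, which is TeSR-E8 medium, or in cjPSCM, a medium with the WNT activator CHIR99021, A419259, IWR-1, vitamin C, LIF, TGFβ and FGF2. From each medium the cells were made into pre-mesendoderm (pre-ME) for 24 h with 3 µM CHIR99021 and the ROCK inhibitor Y-27632, either with 100 ng/ml activin A (+ActA) or without it (−ActA). Pre-ME was then made into embryoid bodies in BMP4, LIF, SCF and EGF. On day 4, marker-positive cells (cjPGCLCs) and marker-negative somatic cells (soma) were sorted from those of cjPSCM origin, and no sorted library of TESR origin was analysed here. This gave 10 conditions with 2 biological replicates each, 20 libraries in all. The sources differ on the sort gate, as the study's methods name the proteins of CXCR4 and ITGA6, the sample titles integrin α6 and EpCAM, and the cell type labels CXCR4 and EpCAM. The titles of the sorted libraries also write the medium as cjEPSCM, which is taken here to be cjPSCM.

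In G1, D-type cyclins bind CDK4 and CDK6, and these kinases phosphorylate the retinoblastoma protein and so release the E2F factors. E2F drives the E-type cyclins, which bind CDK2 and carry the cell into S phase. CDKN1A (p21) and CDKN1B (p27) bind and restrain these complexes. MYC and MYCN bind DNA with MAX and raise genes of ribosome production and growth. Pluripotent stem cells are known for a short G1, which lengthens when they differentiate, and MYC and CCND1 are known targets of WNT signalling in many tissues.

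Between 4784964 and 22067099 reads per library were counted on genes, so that a level of 3 reads stood for 1.40 to 6.92 normalised counts, well under every value of the 10 genes. Levels below are the deposited counts divided by the size factor of the library, and such levels were compared between libraries but not between genes, which differ in length. The replicates of the cjPSCM cjiPSCs stood apart from each other. Over all genes tested, the log2 difference between them had an SD of 0.959 and 18.2% of genes differed more than 2-fold, against 0.619 and 9.34% in TESR cjiPSCs and 0.311 to 0.566 and 1.79% to 7.65% in the other 8 conditions. Results that rest on the cjiPSCs are therefore given with and without these libraries where a call changed. In TESR cjiPSCs 10.6% and 13.3% of reads lay outside genes, and in cjPSCM cjiPSCs 12.2% in replicate 1 and 19.3% in replicate 2. All other libraries had 17.2% to 23.2%. The part of this in the cjiPSC comparisons was not tested. All 3 sort markers were higher in every cjPGCLC library than in any soma library, CXCR4 at 1128 to 1317 normalised counts against 49.5 to 76.1, ITGA6 at 1206 to 2277 against 149 to 218 and EPCAM at 472 to 2237 against 139.9 to 167. SOX17 and NANOS3, markers of primate germ cells, were also higher in cjPGCLCs, with 14.2 to 61.5 normalised counts of NANOS3 against at most 3.54 in soma. In the cjPSCM pre-ME the mesendoderm marker TBXT had 3 counts or fewer, whereas SP5 rose there from 20.7 and 23.7 to between 1444 and 2743 normalised counts. The summed level of TBXT, MIXL1, EOMES and SP5 was 1777 and 1454 there without ActA and 2803 and 1904 with ActA. Most of this sum was SP5.

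**Figure D1:**
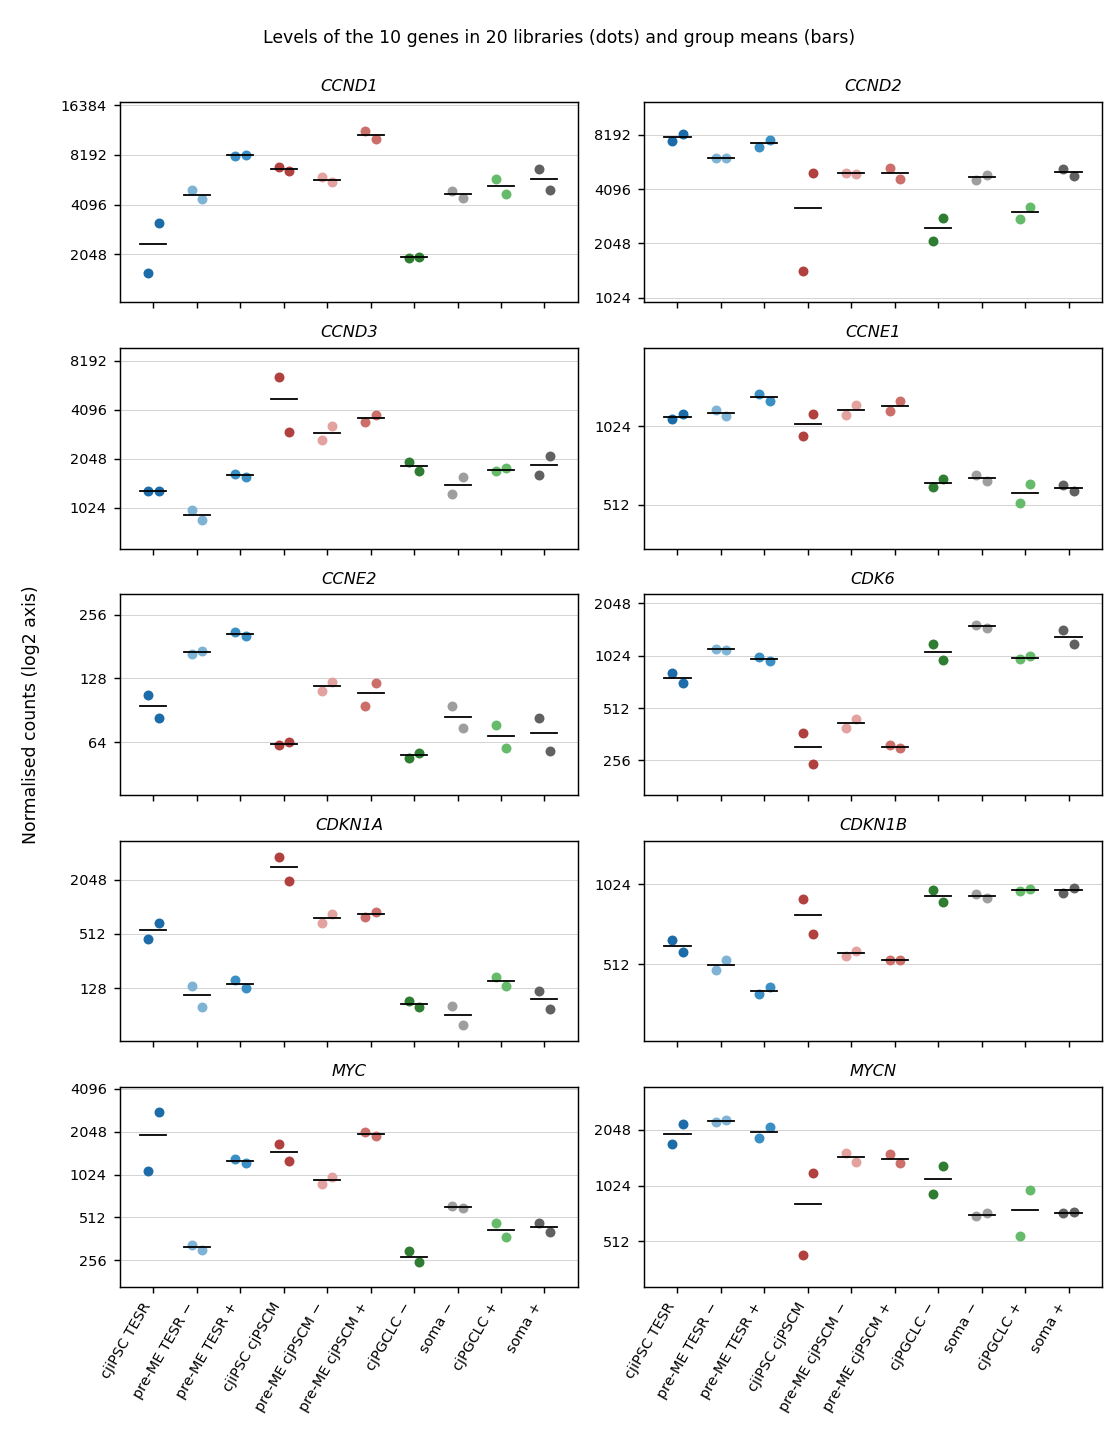
Normalised counts of the 10 genes (vertical axis, log2 scale, set per gene) in the 10 conditions (horizontal axis, with + and − for pre-induction with and without ActA). Dots are single libraries and bars the mean of 2. CDKN1A spans the widest range, from 49.5 to 3691, CCNE1 drops in all day 4 cells to between 522 and 664, and the replicates of the cjPSCM cjiPSCs lie far apart for CCND2, CCND3 and MYCN.

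CDKN1A had the widest range of the 10 genes. Its highest condition mean was 43.6-fold its lowest, a log2 range of 5.43 that exceeded the range of 96.8% of all genes tested. MYC followed with a 7.23-fold range and CCND1 with 5.52-fold, at percentiles of 80.5 and 75.4. CCND3 spanned 5.13-fold, CDK6 4.96-fold, CCNE2 3.77-fold, MYCN 3.22-fold and CCND2 3.19-fold. CDKN1B and CCNE1 spanned 2.39-fold and 2.33-fold, at percentiles of 44.98 and 43.2, close to the median log2 range of 1.38 over all genes tested.

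CCND1, the D-type cyclin most often tied to growth factor and WNT input, had 1574 and 3181 normalised counts in TESR cjiPSCs and 6879 and 6537 in cjPSCM cjiPSCs. In pre-ME it had 4996 and 4426 (TESR −ActA), 8101 and 8160.3 (TESR +ActA), 5984 and 5615 (cjPSCM −ActA) and 11439 and 10219.8 (cjPSCM +ActA). In sorted cells it had 1959 and 1964 (cjPGCLC −ActA), 4979 and 4489.7 (soma −ActA), 5869.7 and 4762 (cjPGCLC +ActA) and 6762 and 4996 (soma +ActA). The 2 pre-ME conditions with ActA were at the top, each apart from its neighbours in the order. TESR cjiPSCs and cjPGCLCs without ActA were at the bottom and overlapped with each other, and the 6 conditions from cjPSCM cjiPSCs down to TESR pre-ME without ActA each overlapped with the next.

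CCND2, a second D-type cyclin, was highest in the TESR cultures, with 7517 and 8301 normalised counts in cjiPSCs, 6097 and 6069.5 in pre-ME without ActA and 7028 and 7641 in pre-ME with ActA. In cjPSCM it had 1448 and 4999.9 in cjiPSCs, 5050.3 and 4971 in pre-ME without ActA and 5332 and 4671 in pre-ME with ActA. Its lowest mean was that of cjPGCLCs without ActA, with 2115 and 2839.97, beside 2798 and 3274 with ActA, 4622 and 4917 in soma without and 5278 and 4842 in soma with ActA. From the cjPSCM pre-ME downwards neighbouring conditions overlapped, so that only the TESR cultures stood clear at the top.

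CCND3, the third D-type cyclin, ran the other way between the media. It had 1294 normalised counts in each library of TESR cjiPSCs, against 6546 and 2987 in cjPSCM cjiPSCs, 2665 and 3269 in cjPSCM pre-ME without ActA and 3474 and 3821 with ActA. TESR pre-ME had 994 and 864 without ActA and 1649 and 1593 with it, and the sorted cells lay between 1238 and 2138. The cjiPSCs and pre-ME in cjPSCM were thus above all other conditions.

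CDK6, the catalytic partner of the D-type cyclins, was lowest in cjPSCM before the embryoid bodies, with 366 and 243 normalised counts in cjiPSCs, 393 and 442 in pre-ME without ActA and 312 and 302 with ActA. TESR cultures had 813 and 710.3 in cjiPSCs, 1124 and 1109.8 in pre-ME without ActA and 1013 and 960.1 with ActA. Sorted cells had 1189 and 966 (cjPGCLC −ActA), 1538 and 1487 (soma −ActA), 982 and 1014 (cjPGCLC +ActA) and 1439.5 and 1196 (soma +ActA). Both soma conditions stood above every other condition, and no library of the cjPSCM cultures before day 4 reached the lowest of the other 14 libraries.

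CCNE1 had between 942 and 1363 normalised counts in the 12 libraries of cjiPSCs and pre-ME and between 522 and 664 in the 8 libraries of sorted cells, without overlap. CCNE2, the second E-type cyclin, peaked in TESR pre-ME with 168 and 174 without ActA and 213 and 204 with ActA. It had 112 and 123 in cjPSCM pre-ME without ActA and 95.1 and 122 with ActA, beside 107 and 83.4 in TESR cjiPSCs, 62.2 and 63.7 in cjPSCM cjiPSCs and 53.9 to 94.6 in sorted cells. CCNE2 was measured with the fewest reads of the cyclins, and in the RefSeq gene table of assembly calJac240_pri it overlaps INTS8, which had 318 to 2464 counts. Since the strand setting of the counting is not given, reads of these overlapping genes may have been lost or shared.

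CDKN1A had 446 and 673 normalised counts in TESR cjiPSCs and 3691 and 1992 in cjPSCM cjiPSCs. Pre-ME had 134 and 79.1 (TESR −ActA), 159 and 128 (TESR +ActA), 679.7 and 861 (cjPSCM −ActA) and 782 and 899 (cjPSCM +ActA). Sorted cells had 92.7 and 78.8 (cjPGCLC −ActA), 80.7 and 49.5 (soma −ActA), 169.9 and 136 (cjPGCLC +ActA) and 119 and 76.0 (soma +ActA). The order thus ran from cjPSCM cjiPSCs over cjPSCM pre-ME and TESR cjiPSCs, each apart from the next level, to a group of 6 conditions in which every neighbour overlapped.

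CDKN1B showed another order, with its highest values in sorted cells. These had 972 and 879 (cjPGCLC −ActA), 941 and 911 (soma −ActA), 967 and 984 (cjPGCLC +ActA) and 951 and 994 (soma +ActA) normalised counts. The cjiPSCs had 631 and 570.3 in TESR and 900.5 and 664 in cjPSCM, and pre-ME had 488 and 531 (TESR −ActA), 395 and 420.4 (TESR +ActA), 552 and 576 (cjPSCM −ActA) and 532 and 531 (cjPSCM +ActA). Pre-ME was the stage with the least CDKN1B in both media, and of the other conditions only cjPSCM cjiPSCs overlapped with the sorted cells.

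MYC had 1080.3 and 2814 normalised counts in TESR cjiPSCs and 1667 and 1284 in cjPSCM cjiPSCs. Pre-ME had 326 and 304 (TESR −ActA), 1311 and 1241 (TESR +ActA), 873 and 991 (cjPSCM −ActA) and 2029 and 1903 (cjPSCM +ActA). Sorted cells had 296 and 247 (cjPGCLC −ActA), 611 and 600.3 (soma −ActA), 469 and 373 (cjPGCLC +ActA) and 466 and 407 (soma +ActA). TESR pre-ME without ActA thus lay as low as the sorted cells, in contrast to the other 3 pre-ME conditions.

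MYCN had 1713 and 2186 normalised counts in TESR cjiPSCs, 2266 and 2319 in TESR pre-ME without ActA and 1844 and 2115 with ActA. In cjPSCM it had 434 and 1193 in cjiPSCs, 1538 and 1379.99 in pre-ME without ActA and 1518 and 1347 with ActA, and sorted cells lay between 549 and 1305. The 3 TESR conditions stood above all others, and the 2 soma conditions were the lowest by mean, with 699 to 736.

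Changes between conditions were tested for all genes with edgeR's quasi-likelihood test, and a gene is said to have risen, fallen or passed where its adjusted p (Benjamini-Hochberg over 15797 genes) was under 0.05. Each change is given as a log2 fold change with its standard error (SE), negative where the first group named was lower. The p-values rest on the spread between biological replicates of 1 line, estimated for each gene from all 20 libraries together. This shared spread is not that of the 2 conditions compared. It may be too small for the cjiPSCs, whose replicates differed most over all genes, and too large for other conditions. In RNA of whole cell populations, fewer cells with a transcript and less of it per cell cannot be told apart.

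**Figure D2:**
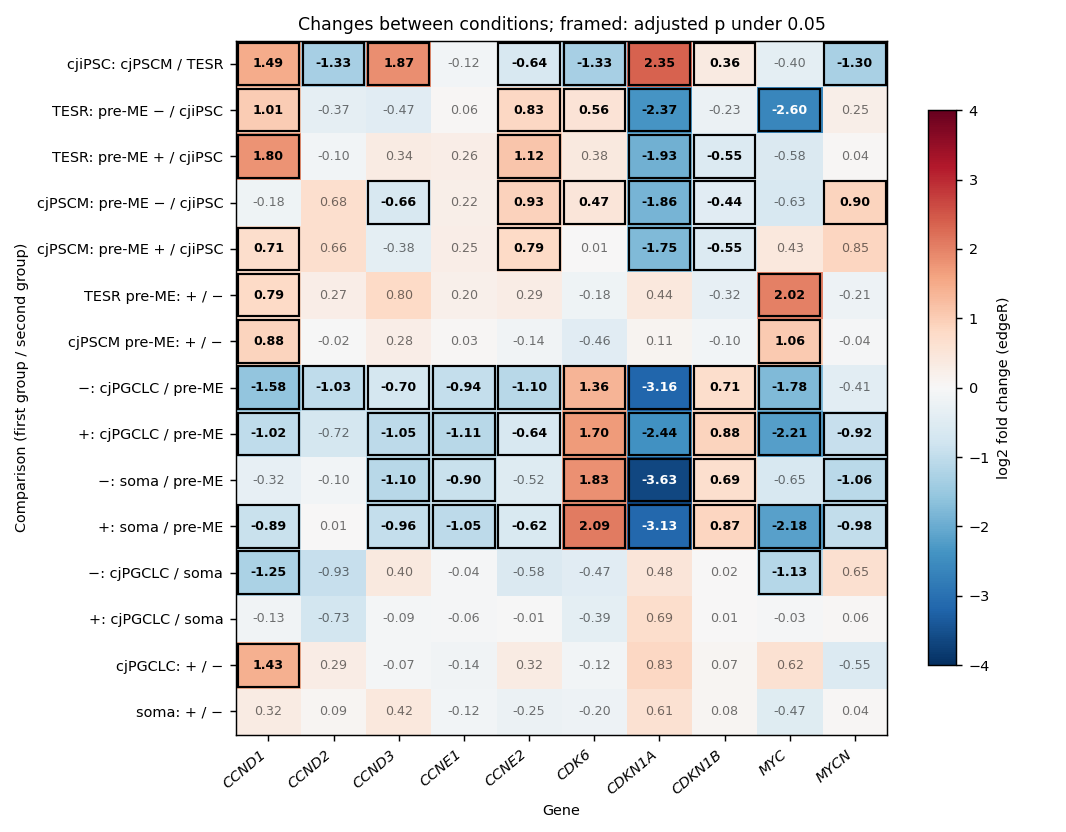
Log2 fold changes of the 10 genes (columns) in 15 comparisons of conditions (rows, first group over second group; + and − stand for pre-induction with and without ActA). Colour gives the size and direction, and framed cells passed at an adjusted p under 0.05. CDKN1A fell in all 8 comparisons of a later with an earlier stage, and CDK6 and CDKN1B rose in all 4 comparisons of day 4 cells with pre-ME.

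The first comparison asked how the medium sets these genes in undifferentiated cells. In cjPSCM, 4 of the 10 genes were higher than in TESR and 4 lower, where 18.1% of all genes were higher and 18.1% lower. The higher ones were both CDK inhibitors and 2 D-type cyclins. CDKN1A rose most, by 2.35 (SE 0.30, adjusted p = 1.29e-05), the only one of these genes past a log2 fold change of 2 in this comparison. CCND3 rose by 1.87 (SE 0.26, adjusted p = 3.17e-05), CCND1 by 1.49 (SE 0.23, adjusted p = 7.93e-05) and CDKN1B by 0.36 (SE 0.14, adjusted p = 0.048). The lower ones were CDK6 at -1.33 (SE 0.17, adjusted p = 1.39e-05), CCND2 at -1.33 (SE 0.33, adjusted p = 0.005), MYCN at -1.30 (SE 0.32, adjusted p = 0.00466) and CCNE2 at -0.64 (SE 0.23, adjusted p = 0.0368). CCNE1 and MYC did not pass with all libraries in the fit. For MYC the log2 fold change of -0.40 (SE 0.27, adjusted p = 0.275) became 0.41 without TESR replicate 2 and -0.93 without TESR replicate 1. The TESR libraries thus do not settle whether MYC differs between the media.

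Of these 8 calls, 6 passed with any 1 of the 4 libraries left out, though their size moved with the cjPSCM replicates. A fit of these 4 libraries alone called 4 of the 10 genes, CCND1, CCND3, CDK6 and CDKN1A, and there CCND2 had an adjusted p of 0.0911 and MYCN of 0.0616. Without cjPSCM replicate 1 the log2 fold change was -0.70 for CCND2, -0.74 for MYCN and 1.17 for CCND3, and without cjPSCM replicate 2 it was -2.45, -2.16 and 2.34. CDKN1A lay at 1.82 and 2.75 in the same order. CDKN1B did not pass without cjPSCM replicate 1 (0.10, adjusted p = 0.596) or TESR replicate 2 (0.28, adjusted p = 0.181) and was at 0.58 without cjPSCM replicate 2. CCNE2 did not pass without TESR replicate 1 (-0.41, adjusted p = 0.297) or either cjPSCM replicate (adjusted p = 0.0885 and 0.0647). A list of 4 endothelial and blood markers also differed between these libraries, with a summed level of 27425 and 12868 normalised counts in cjPSCM against 2869 and 2573 in TESR. This level came from PECAM1, CDH5 and TAL1, as the blood marker PTPRC was at 0 in both cjPSCM libraries, and the part of the list in the differences was not tested. The study counts PECAM1 among the naïve and formative pluripotency genes that cjiPSCs in cjPSCM express. Whether the summed level reflects endothelial cells was not tested.

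Other genes of the pathway were taken from lists of symbols. Of 24 other regulators of G1 and S entry, 4 were higher and 7 lower, and the higher ones included the INK4 inhibitors CDKN2A, at 3.08 (SE 0.24), and CDKN2B, at 2.20 (SE 0.35). Of 20 genes of S phase and mitosis, 2 were higher and 10 lower. The helicase subunit MCM7 was at -0.94 (SE 0.12) and the proliferation marker MKI67 at 0.85 (SE 0.29). Of 20 canonical MYC targets, 2 were higher and 3 lower, with ODC1, the first enzyme of polyamine synthesis, at -1.23 (SE 0.12). Of 11 tested partners of the MYC network, 3 were higher and 0 lower.

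The step from cjiPSCs to pre-ME was compared within each medium, and both pre-ME conditions of a medium share its cjiPSC libraries. In the deposit the TESR pre-ME samples are numbered apart from all others. Neither the sample titles nor the study's methods say whether they were prepared together with the TESR cjiPSCs. In TESR without ActA, 3 of the 10 genes rose and 2 fell, where 17.4% of all genes rose and 19.2% fell. MYC fell, at -2.60 (SE 0.29, adjusted p = 5.94e-06), and so did CDKN1A, at -2.37 (SE 0.31, adjusted p = 3.25e-05). CCND1 rose by 1.01 (SE 0.22, adjusted p = 0.00227), CCNE2 by 0.83 (SE 0.21, adjusted p = 0.00511) and CDK6 by 0.56 (SE 0.16, adjusted p = 0.0126). The log2 fold change of MYC was between -3.13 and -1.79 with 1 library left out, and the MYC libraries did not overlap although the 2 cjiPSC libraries differed widely. CCND1 was at 0.60 without cjiPSC replicate 1 and 1.57 without cjiPSC replicate 2 and passed in both fits. The call of CDK6 was lost without TESR cjiPSC replicate 2 or either pre-ME library, with an adjusted p of at most 0.0932.

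In TESR with ActA, 2 of the 10 genes rose and 2 fell, where 17.3% of all genes rose and 17.1% fell. CCND1 rose by 1.80 (SE 0.23, adjusted p = 2.35e-05) and CCNE2 by 1.12 (SE 0.21, adjusted p = 0.000639), whereas CDKN1A was at -1.93 (SE 0.31, adjusted p = 0.00017) and CDKN1B at -0.55 (SE 0.14, adjusted p = 0.00526). MYC had a log2 fold change of -0.58 (SE 0.27, adjusted p = 0.11), which was 0.23 without cjiPSC replicate 2 and -1.11, a fall that passed (adjusted p = 0.000257), without cjiPSC replicate 1. Without TESR pre-ME replicate 1 of the +ActA group, CDKN1B had an adjusted p of 0.0573.

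In cjPSCM without ActA, 3 of the 10 genes rose and 3 fell, where 17.9% of all genes rose and 20.1% fell. The genes that fell were CDKN1A at -1.86 (SE 0.29, adjusted p = 0.000164), CCND3 at -0.66 (SE 0.25, adjusted p = 0.0487) and CDKN1B at -0.44 (SE 0.14, adjusted p = 0.0174). CCNE2 rose by 0.93 (SE 0.22, adjusted p = 0.00411), MYCN by 0.90 (SE 0.32, adjusted p = 0.0354) and CDK6 by 0.47 (SE 0.17, adjusted p = 0.0387). CCND1 was at -0.18 (SE 0.22, adjusted p = 0.553) and MYC at -0.63 (SE 0.28, adjusted p = 0.0798). The changes of CDKN1A and CCNE2 passed with any library left out, but in a fit of the 4 libraries alone CDKN1A was the only one of the 10 called (adjusted p = 0.0337) and CCNE2 had an adjusted p of 0.0983. Without cjPSCM cjiPSC replicate 1, CCND3 was at 0.04, MYCN at 0.34 and CDKN1B at -0.19, none of which passed, whereas without replicate 2 CCND3 was at -1.13 and MYCN at 1.76. These 3 calls were also lost without either pre-ME library, and that of CDK6, at 0.83 without cjiPSC replicate 1, was lost without cjiPSC replicate 2 (0.20) or either pre-ME library. Conversely, CCND2, CCNE1 and MYC passed only when cjiPSC replicate 2 was left out.

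In cjPSCM with ActA, 2 of the 10 genes rose and 2 fell, where 7.42% of all genes rose and 10.3% fell. CDKN1A fell, at -1.75 (SE 0.29, adjusted p = 0.000581), also with any library left out, and CDKN1B fell, at -0.55 (SE 0.14, adjusted p = 0.0114). In a fit of the 4 libraries alone none of the 4 calls passed, with an adjusted p of 0.0711 for CDKN1A. CCNE2 rose by 0.79 (SE 0.23, adjusted p = 0.0241) and CCND1 by 0.71 (SE 0.22, adjusted p = 0.0365). MYCN, at 0.85 (SE 0.32, adjusted p = 0.076), and MYC, at 0.43 (SE 0.27, adjusted p = 0.298), did not pass. The call of CCND1 was lost without any 1 of the 4 libraries, with an adjusted p of 0.0646 to 0.211. That of CDKN1B was lost without cjiPSC replicate 1 (-0.29) or either pre-ME library, and that of CCNE2 without cjiPSC replicate 1 or pre-ME replicate 2. Without cjiPSC replicate 2 the genes CCND2, CCND3, CCNE1 and MYCN passed as well.

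Whether the step to pre-ME without ActA differed between the media was tested as an interaction, cjPSCM change minus TESR change. Of the 10 genes, 1 was higher and 1 lower, where 2.95% of all genes were higher and 3.59% lower. MYC, which fell in TESR, changed less in cjPSCM, with a difference of 1.97 (SE 0.39, adjusted p = 0.00666), between 1.16, without TESR cjiPSC replicate 2, and 2.49 with 1 library left out. CCND1, which rose in TESR, differed by -1.18 (SE 0.31, adjusted p = 0.033). The call of CCND1 was lost without TESR cjiPSC replicate 1 (-0.77, adjusted p = 0.0704) or any of the 4 pre-ME libraries, with an adjusted p of at most 0.12. CCND2 and MYCN passed only without cjPSCM cjiPSC replicate 2. Both calls were lost in a fit of the 8 libraries of this comparison only, at an adjusted p of 0.134 for MYC and 0.24 for CCND1. Of the 20 MYC targets, ODC1 and POLR1B passed, with differences of 0.86 and 0.80.

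Genes around the 10 moved in different ways at this step. Of 20 canonical MYC targets, 3 rose and 2 fell in TESR pre-ME without ActA, where MYC fell, and 7 rose and 0 fell with ActA. In cjPSCM pre-ME 9 rose and 0 fell under each condition, among them ODC1 at 1.05 (SE 0.12) without and 0.88 (SE 0.12) with ActA. Without cjPSCM cjiPSC replicate 1 these counts were 5 and 4, without either pre-ME library 6 in the −ActA and 4 or 5 in the +ActA condition, and without cjiPSC replicate 2 they were 9 and 11, with 3 and 1 targets lower. The 7 in TESR were 4 without either +ActA pre-ME library, and without cjiPSC replicate 1 there were 5 higher and 4 lower. MXD4, which competes with MYC for MAX, fell in all 4 comparisons, with log2 fold changes between -1.38 and -1.06. Of 20 genes of S phase and mitosis, 1 to 5 rose and 0 to 5 fell in these comparisons. Of 9 tested genes of dissociation and stress, 4 rose and 1 fell in TESR without ActA, 3 rose and 0 fell with ActA, 3 rose and 2 fell in cjPSCM without ActA, and 3 rose and 0 fell with ActA. The immediate early genes FOSB and FOS rose in all 4 comparisons, whereas IER2 fell without ActA, at -1.23 in TESR and -1.42 in cjPSCM, and JUNB fell in cjPSCM without ActA, at -1.41. Their part in the changes was not tested.

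The effect of ActA was tested in pre-ME of both media, where it was given during the pre-induction. In TESR pre-ME, 2 of the 10 genes were higher with ActA and 0 lower, where 5.63% of all genes were higher and 3.20% lower. These were MYC, at 2.02 (SE 0.28, adjusted p = 0.00017), and CCND1, at 0.79 (SE 0.22, adjusted p = 0.0337). In cjPSCM pre-ME the higher ones were again MYC, at 1.06 (SE 0.28, adjusted p = 0.0139), and CCND1, at 0.88 (SE 0.22, adjusted p = 0.0118), with 0 lower, where 11.4% of all genes were higher and 9.54% lower. As mean ± SD, MYC went from 315 ± 15.4 to 1276 ± 49.4 normalised counts in TESR (SD, n = 2 each) and from 932 ± 83.1 to 1966 ± 89.3 in cjPSCM (SD, n = 2 each). The libraries with and without ActA did not overlap for either gene in either medium. Among genes that did not pass, CCND3 was at 0.80 (SE 0.25, adjusted p = 0.0588) in TESR and 0.28 in cjPSCM, CDK6 at -0.46 (SE 0.17, adjusted p = 0.0641) in cjPSCM and CDKN1A at 0.44 in TESR.

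The MYC difference in TESR passed with any library left out. Each of the other 3 calls was lost when some libraries were left out, though the size moved little. CCND1 in TESR had an adjusted p of 0.104 to 0.272 and a log2 fold change of 0.70 to 0.88 without any 1 of the 4 libraries. In cjPSCM, CCND1 was not called without +ActA replicate 1 or −ActA replicate 2, at 0.79 and 0.82, and MYC was not called without +ActA replicate 1 or either −ActA library, at 0.95 to 1.14. The ActA effect of MYC differed between the media by -0.96 (SE 0.39, adjusted p = 0.23) and that of CCND1 by 0.10 (SE 0.31, adjusted p = 0.907), or -0.018 without −ActA replicate 1 of TESR. Of the 10 genes 0 passed edgeR's test of this difference, where 0.158% of all genes were higher and 0.241% lower, and DESeq2 also called 0. At an unadjusted p under 0.05, 1 gene was below it, MYC.

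**Figure D3:**
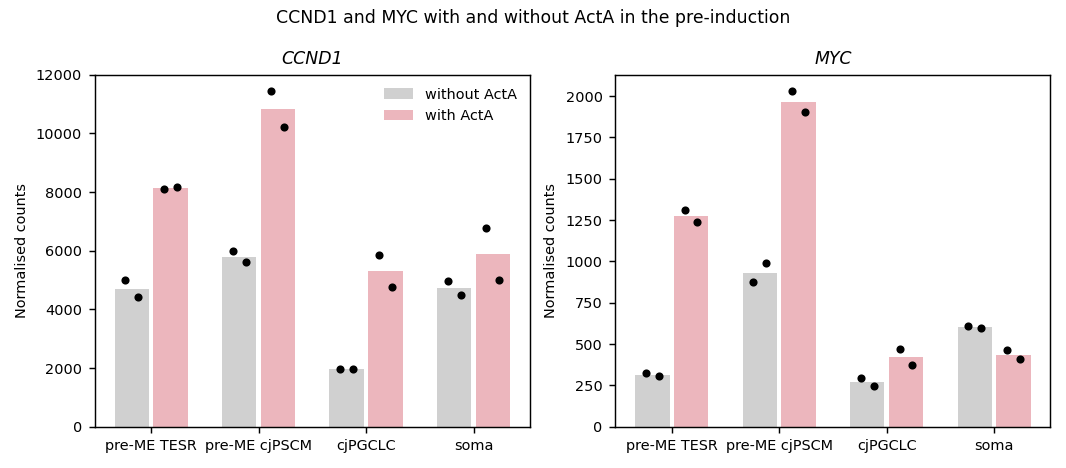
Normalised counts of CCND1 and MYC (vertical axes, linear from 0) in pre-ME of both media, cjPGCLCs and soma, pre-induced without ActA (grey) or with ActA (red). Bars are means of 2 libraries and dots the libraries. In pre-ME every +ActA library is above every −ActA library for both genes, in cjPGCLCs CCND1 is 1959 and 1964 without ActA against 5869.7 and 4762 with it, and in soma MYC is 611 and 600.3 without against 466 and 407 with ActA.

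Of the 24 other G1 and S entry regulators, 2 were higher with ActA in each medium. CDKN2B, an INK4 inhibitor known as a TGFβ target, was higher by 4.20 (SE 0.35) in TESR and 3.24 (SE 0.33) in cjPSCM, and CDKN2A by 0.99 (SE 0.23) and 0.95 (SE 0.22). In cjPSCM the ubiquitin ligase subunit SKP2, which marks CDKN1B for destruction, and CCNA2 were lower, at -0.85 and -0.41. Of the 20 canonical MYC targets 0 were higher and 0 lower in TESR with edgeR's test, 5 were below an unadjusted p of 0.05 and DESeq2 called 2 higher, and in cjPSCM 1 was higher and 1 lower. MYCL, the related MYC gene, was lower with ActA in TESR, at -0.85 (SE 0.17). Of 9 tested genes of dissociation and stress, JUN and IER2 were higher with ActA in TESR and JUN, IER2 and JUNB in cjPSCM, and 0 were lower in either medium. Other immediate early genes had values on the other side of 0 without passing, with EGR1 at -1.36 (SE 0.43, adjusted p = 0.058) in TESR and -1.02 (SE 0.43, adjusted p = 0.0951) in cjPSCM, and FOS at -1.08 and -1.10. Their part in the MYC difference was not tested.

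Day 4 cells were compared with the pre-ME they came from. The cell type, the time in culture, the added signals, the culture format and the sorting itself differed together and cannot be told apart. Pre-ME had CHIR99021 with or without ActA, whereas the embryoid bodies had BMP4, LIF, SCF and EGF. In cjPGCLCs with ActA, 7 of the 10 genes were lower than in pre-ME and 2 higher, where 23.0% of all genes were lower and 25.3% higher. Without ActA 7 were lower and 2 higher as well, where 18.5% of all genes were lower and 21.5% higher. In soma with ActA 7 were lower and 2 higher, where 24.2% of all genes were lower and 23.8% higher, and in soma without ActA 4 were lower and 2 higher, where 21.7% of all genes were lower and 20.6% higher. With 1 library left out, 8 of the 10 genes passed in the first of these comparisons, 7 or 8 in the second, 6 to 8 in the third and 5 or 6 in the last.

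CDKN1A fell most of the 10 genes in all 4 comparisons, at -2.44 (SE 0.32) in cjPGCLCs and -3.13 (SE 0.35) in soma with ActA, and at -3.16 (SE 0.34) and -3.63 (SE 0.37) without, each with an adjusted p of at most 1.35e-05. CDKN1B, the other inhibitor, moved the opposite way. It rose by 0.88 (SE 0.14, adjusted p = 7.75e-05) in cjPGCLCs and 0.87 (SE 0.14, adjusted p = 9.35e-05) in soma with ActA, and by 0.71 and 0.69 without. CDK6 rose by 1.70 (SE 0.17, adjusted p = 9.79e-07) and 2.09 (SE 0.17, adjusted p = 1.27e-07) with ActA, and by 1.36 (SE 0.17) and 1.83 (SE 0.17) without. CCNE1 fell in all 4, at -1.11 to -0.90, each with a SE of 0.12. These 4 genes passed in all 4 comparisons with any 1 library left out.

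**Figure D4:**
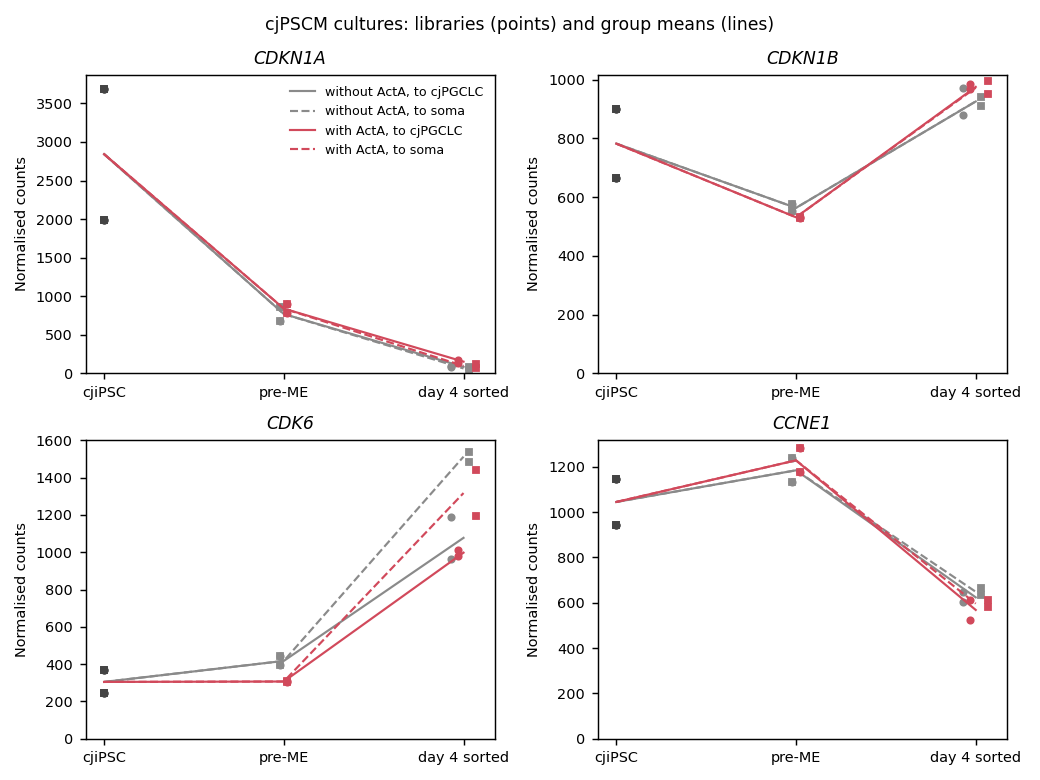
CDKN1A, CDKN1B, CDK6 and CCNE1 in normalised counts (vertical axes, linear from 0) along the cjPSCM protocol, from cjiPSCs over pre-ME to cells sorted on day 4. Lines join group means (solid to cjPGCLCs, dashed to soma, grey without and red with ActA) and points are single libraries. CDKN1A falls at both steps, CDK6 and CDKN1B have their highest means on day 4, and CCNE1 is at 522 to 664 on day 4 against 942 to 1281 before.

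MYC fell in cjPGCLCs, at -2.21 (SE 0.29, adjusted p = 1.42e-05), and in soma, at -2.18 (SE 0.29, adjusted p = 1.78e-05), with ActA, and was at -1.78 (SE 0.29, adjusted p = 0.000161) in cjPGCLCs without ActA. In soma without ActA it was at -0.65 (SE 0.28, adjusted p = 0.0771) and did not pass. CCND1 likewise fell in cjPGCLCs, at -1.02 with and -1.58 without ActA, and in soma with ActA, at -0.89, whereas soma without ActA was at -0.32 (SE 0.22, adjusted p = 0.26). CCND3 fell in all 4 comparisons, at -1.10 to -0.70. CCND2 passed in cjPGCLCs without ActA only, at -1.03 (SE 0.33, adjusted p = 0.0202), and was at -0.72 (SE 0.33, adjusted p = 0.0811) in cjPGCLCs with ActA. MYCN fell with ActA, at -0.92 in cjPGCLCs and -0.98 in soma, and in soma without ActA, at -1.06, and was at -0.41 without passing in cjPGCLCs without ActA. CCNE2 fell in cjPGCLCs, at -0.64 with and -1.10 without ActA, and in soma with ActA, at -0.62, and was at -0.52 (adjusted p = 0.0798) in soma without.

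Several of these smaller changes lost their call when a single library was left out. CCND2 in cjPGCLCs without ActA was not called without cjPGCLC replicate 1 or either pre-ME library, with an adjusted p of at most 0.152. CCND3 was not called in cjPGCLCs without ActA when either cjPGCLC library or pre-ME replicate 2 was left out (at most 0.187), nor in soma with ActA without soma replicate 1 (0.0674). MYCN in cjPGCLCs with ActA was not called without cjPGCLC replicate 1 (-0.56) or pre-ME replicate 1 and was at -1.39 without cjPGCLC replicate 2, and in soma it was not called without pre-ME replicate 1 or either soma library, under both conditions. CCNE2 with ActA was not called without pre-ME replicate 2 in either cell type, nor without cjPGCLC replicate 2 (-0.49) or soma replicate 2 (-0.38). CCND1 in soma with ActA was not called without soma replicate 2 (-0.69, adjusted p = 0.0612).

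Most genes of the lists for MYC targets and for S phase and mitosis were lower as well. Of 20 canonical MYC targets, 19 were lower in cjPGCLCs with ActA, 18 in cjPGCLCs without ActA, 18 in soma with ActA and 19 in soma without ActA, and 0 were higher. Their median log2 fold change lay between -1.17 and -0.89, against at most 0.04 for the median of all genes, and with 1 library left out 14 to 19 were lower. NME1, a nucleoside diphosphate kinase, lay between -1.94 and -1.76 on the log2 scale, ODC1 between -1.21 and -0.94, and NOP56, a ribosome assembly factor, at -1.77 and -1.36 in cjPGCLCs with and without ActA. In soma without ActA, MYC was at -0.65 without passing, though both libraries lay below those of pre-ME, and MYCN was at -1.06. The part of either gene in the lower targets was not tested. Of 20 genes of S phase and mitosis, 14 and 13 were lower in cjPGCLCs with and without ActA, and 18 and 14 in soma, and with 1 library left out 7 to 18 were lower. The replication clamp PCNA was lower in all 4 comparisons, at -1.07 to -0.92. The mitotic kinase AURKA was at -0.96 and -0.82 in cjPGCLCs with and without ActA and at -1.66 and -1.63 in soma. The count of 13 in cjPGCLCs without ActA was 7 without cjPGCLC replicate 2 and 8 without pre-ME replicate 2.

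Among other inhibitors, CDKN2A fell in all 4 comparisons, at -2.27 and -1.64 in cjPGCLCs with and without ActA and -3.44 and -2.82 in soma. CDKN1C (p57), the third member of the family of CDKN1A and CDKN1B, rose in all 4 by between 0.86 and 1.35, as did RB1, the retinoblastoma gene, by between 0.67 and 1.06. Markers of other cell types rose in the sorted cells, with 2 or 3 of 4 somatic mesoderm markers and 4 of 4 amnion-like markers higher in each comparison. The summed level of the somatic mesoderm markers was 4416 to 7938 normalised counts in the 8 sorted libraries against 16.5 to 49.2 in the 4 libraries of cjPSCM pre-ME, and that of the amnion-like markers was 4781 to 7142 against 685 to 966. Among genes of dissociation and stress, 1 or 2 of 9 were higher and 2 to 4 lower, with ATF3 higher and HSPA8 lower in all 4 comparisons. The part of these markers in the changes was not tested.

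**Figure D5:**
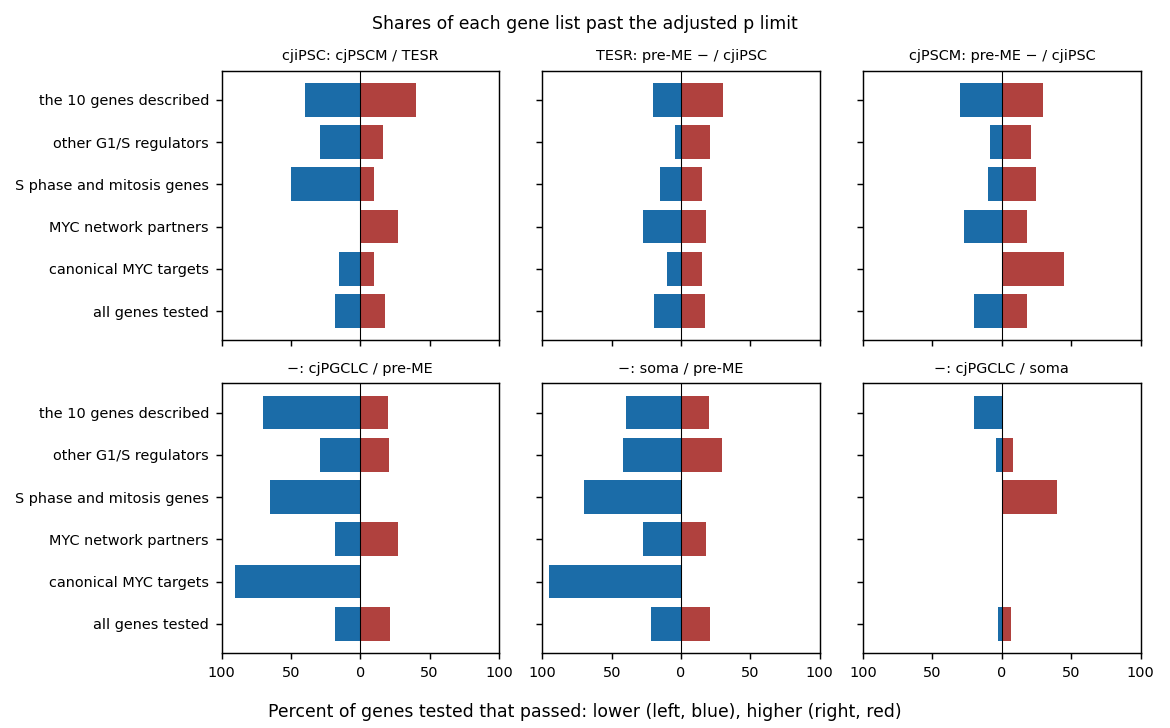
Share of genes past an adjusted p of 0.05 (horizontal axes, percent of the genes tested in a list; lower to the left in blue, higher to the right in red) for the 10 genes, 4 further lists and all genes tested, in 6 comparisons. The −ActA conditions are shown for pre-ME and sorted cells. In day 4 cells 18 and 19 of 20 canonical MYC targets were lower, and 10 of 20 genes of S phase and mitosis were lower in cjPSCM cjiPSCs.

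The sort separated cjPGCLCs from soma of day 4 embryoid bodies. With ActA, 0 of the 10 genes differed by edgeR's test, where 3.68% of all genes were higher and 1.16% lower in cjPGCLCs. At an unadjusted p under 0.05, CCND2 (-0.73, SE 0.33) and CDK6 (-0.39, SE 0.16) were below it. DESeq2 also called 0, and a fit of the 4 libraries alone called 2 of the 10. Without ActA, 2 of the 10 were lower in cjPGCLCs and 0 higher, where 2.96% of all genes were lower and 6.67% higher. CCND1 was at -1.25 (SE 0.23, adjusted p = 0.0016) and MYC at -1.13 (SE 0.30, adjusted p = 0.0226). The difference of CCND1 passed with any library left out, whereas that of MYC, between -1.28 and -1.02, had an adjusted p of 0.0849 to 0.143. CCND2, at -0.93 (SE 0.33, adjusted p = 0.0944), CDK6, at -0.47 (SE 0.16, adjusted p = 0.0866), and MYCN, at 0.65 (SE 0.33, adjusted p = 0.268), did not pass.

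Whether the sorting difference depended on ActA was tested as an interaction, in which 0 of the 10 genes passed, where 0.0253% of all genes were higher and 0.0380% lower. The largest differences were those of CCND1, at 1.12 (SE 0.32, adjusted p = 0.291), and MYC, at 1.09 (SE 0.42, adjusted p = 0.607), and at an unadjusted p under 0.05 these 2 genes were below it. DESeq2 also called 0. For CCND1 the sorting difference was -0.13 (SE 0.22, adjusted p = 0.868) with ActA, and for MYC it was -0.03 (SE 0.29, adjusted p = 0.982), and both crossed 0 without soma replicate 1 or cjPGCLC replicate 2.

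ActA in the pre-induction was followed to day 4 as well. In cjPGCLCs, CCND1 alone of the 10 genes was higher with ActA, by 1.43 (SE 0.23, adjusted p = 0.00314), also with any library left out, and 0 were lower, where 1.37% of all genes were higher and 1.16% lower. CDKN1A, at 0.83 (SE 0.35, adjusted p = 0.288), and MYC, at 0.62 (SE 0.30, adjusted p = 0.374), did not pass. In soma 0 of the 10 genes passed, where 0.0190% of all genes were higher and 0.00633% lower, at an unadjusted p under 0.05 there were 0 as well, and DESeq2 also called 0. CCND1 was at 0.32 (SE 0.22) and MYC at -0.47 (SE 0.30) in soma, each with an adjusted p of 1. Markers of germ cells and of other cells had different levels in cjPGCLCs with and without ActA as well. The summed level of 4 germ cell markers was 2601 and 2545 normalised counts without ActA and 1289.7 and 1358 with it, though 0 of the 4 passed edgeR's test and 1 was below an unadjusted p of 0.05. Most of it was SOX17, with 2152 and 2096 without and 913 and 1034 with ActA (log2 fold change -1.13, SE 0.42, adjusted p = 0.212). The summed level of 4 endoderm markers was 2035 and 1578 normalised counts without ActA and 694 and 435 with it, and that of the fibroblast markers was 3840 and 2548 without and 10145 and 7163 with ActA. FOXA2 had 518 and 356 normalised counts in cjPGCLCs without ActA, 192 and 83.9 with ActA and at most 4.61 in soma. FOXA1 and TTR had 3 counts or fewer in every soma library. The part of these markers in the CCND1 differences was not tested.

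Of the 20 genes of S phase and mitosis, 7 with ActA and 8 without were higher in cjPGCLCs than in soma and 0 lower. Over all genes 3.68% were higher with ActA and 6.67% without. None of the 10 G1 genes passed as higher. AURKA was higher by 0.70 (SE 0.12) with and 0.81 (SE 0.12) without ActA, and PLK1, another mitotic kinase, by 0.68 and 0.71. With 1 library left out 0 to 2 genes of the list passed with ActA and 1 to 6 without, fewest without soma replicate 1 and soma replicate 2, respectively. CDKN2A was also higher in cjPGCLCs, by 1.17 under each condition. Of the canonical MYC targets and the MYC network partners, 0 differed between the sorted fractions under either condition by edgeR's test. At an unadjusted p under 0.05 there were 0 and 5 with ActA and 1 of each list without, and DESeq2 also called 0.

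Across the 10 condition means of log2 levels, the members that ran most closely together were CCNE1 and MYCN, with a Pearson correlation of 0.79, and CCNE2 and MYCN, also at 0.79. The most opposed were CDK6 and CDKN1A, at -0.95, and CCNE1 and CDKN1B, at -0.93. These correlations describe 10 points of 1 line that share media, stages and cjiPSC origin, and over the 20 libraries they were 0.74, 0.68, -0.91 and -0.93.

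Among 13243 other tested genes with a symbol, those with the most similar condition means were sought for each member by Pearson correlation over the 10 means. For CCNE1 they were AATF, DCTPP1 and CCT3 (0.99 each), for CDKN1B ATP2B4, RGL1 and NSF (0.98 to 0.99) and for CDKN1A TSPO, POLR3GL and TCEAL3 (0.98 to 0.99). For CDK6 they were RLF, ZBED9 and TRPM3 (0.97 to 0.98), for CCNE2 RAD18, RARS1 and MAL2 (0.96 to 0.98) and for MYC NT5C3A, HYPK and RWDD4 (0.94 to 0.97). For MYCN they were EXO1, ODC1 and POLD3 (0.97 each), for CCND3 COG2, PFKP and NBL1 (0.96 each), for CCND2 RAB39A, HMGA2 and GPRIN1 (0.94 to 0.95) and for CCND1 EFNA3, NPC1L1 and NTMT1 (0.91 to 0.93). CCND1 thus had the least similar neighbours. These names depend on the measure. CCND3 kept all 3 of its genes over the 20 libraries, but with Spearman's correlation MYC alone of the 10 members kept at least 2 of its 3.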

How the data were processed

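Poly(A) RNA was sequenced as paired-end reads. Per the labels and the study's methods, the authors used FastQC 0.11.8, aligned to calJac4 with STAR 2.7.0a and counted reads per gene with HTSeq 0.11. The annotation release and strand setting are not given in the sources used here. The authors deposited raw counts and, as a second table, a signal of counts divided by DESeq2 size factors (normalised counts). Over all libraries 18.9% of reads lay outside genes and 0.307% were ambiguous, and these rows were left out.

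Raw counts of all 20 libraries were fitted with edgeR 4.0.16 (R 4.3.3, TMM, filterByExpr, 1 mean per condition, 10 residual degrees of freedom, quasi-likelihood F-test, Benjamini-Hochberg adjustment per comparison), tested first on simulated data. Libraries were grouped by their labels. Normalised counts served for levels and, as log2(value + 1), for correlations.

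The 10 genes, the gene lists and the tests were chosen with earlier results of these data known. Of each list, genes are named from those with the largest changes, and others, such as MKI67, PCNA, RB1 and NOP56, after their values were seen. Alternatives were DESeq2 1.42.0, its size factors, other filters, the replicate number as a block, fits on the libraries of one comparison and each library left out, where the library left alone is assumed to vary like the other groups. A further gene list is not reported here, and no coordinates or sequences were used here.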

Additional observations from a re-analysis of the deposited data

Results flagged for a closer look

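Among the 10 genes, 2 changed by different amounts between the media on the way from cjiPSCs to pre-ME without ActA, by a test of the difference itself with edgeR's quasi-likelihood test. MYC was at a log2 fold change of -2.60 in TESR and -0.63 in cjPSCM, a difference of 1.97 (standard error, SE, 0.39, adjusted p = 0.00666). CCND1 was at 1.01 in TESR and -0.18 in cjPSCM, a difference of -1.18 (SE 0.31, adjusted p = 0.033). Over all genes 2.95% were higher and 3.59% lower in this test. A fit of the libraries of this comparison only called 0 of the 10 genes. The CCND1 call was also lost when some single libraries were left out, as described above. The TESR cjiPSC replicates behind both differences lay far apart, at 1080.3 and 2814 normalised counts for MYC and 1574 and 3181 for CCND1. No condition had enough libraries for a test of single outlying libraries.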

How the results depend on the processing

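Of the 10 genes, the number called was within 1.5 times the reported one in every comparison with DESeq2's size factors, a mean of at least 1 CPM, and the replicate number as a block. DESeq2 itself moved 1 count, from 2 to 4 for the sort without ActA. Without a filter on low counts the number called was 2 for the sort with ActA (from 0), 4 for the sort without ActA (from 2), 4 for ActA in cjPGCLCs (from 1), 2 for the sort by ActA (from 0) and 1 for ActA by medium (from 0). A fit of the libraries of the comparison only, which estimates the spread from fewer libraries, gave 4 for the media (from 8), 1 and 0 for cjPSCM pre-ME without and with ActA (from 6 and 4), 7 for ActA in TESR pre-ME (from 2), 2 and 6 for the sort with and without ActA (from 0 and 2), 3 for ActA in cjPGCLCs (from 1), 2 for the sort by ActA (from 0), 1 for ActA by medium (from 0) and 0 for pre-ME by medium (from 2). Calls over all genes moved with these counts. In this fit they went from 2853 higher and 2863 lower of 15797 to 1062 and 732 of 13936 for the media. For cjPSCM pre-ME with ActA they went from 1172 and 1630 to 67 and 111 of 13928. For ActA in TESR pre-ME they went from 890 and 506 to 2321 and 1975 of 15069. Without the filter they went from 217 and 183 to 576 and 439 of 25102 for ActA in cjPGCLCs.

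With 1 library left out, the number called was 2 to 8 for cjPSCM pre-ME without ActA, 1 to 7 with ActA, 1 for ActA in TESR pre-ME, 0 to 2 for ActA in cjPSCM pre-ME, 1 for the sort without ActA and 1 to 4 for pre-ME by medium, and within 1.5 times the reported number elsewhere. Of 180 log2 fold changes of the 10 genes, 33 then crossed 0, of which 1 had been called. Among those given with a value in the report they were those of MYC between the media (-0.93 to 0.41) and in TESR pre-ME with ActA (-1.11 to 0.23), for CCND3 in cjPSCM pre-ME without ActA (-1.13 to 0.041), in the sort with ActA for CCND1 (-0.34 to 0.10) and MYC (-0.21 to 0.11), and for CCND1 in ActA by medium (-0.018 to 0.18). The causes were not tested beyond the libraries named in the report.

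Neither the labels nor the study's methods say that a replicate number marks a shared culture or shared embryoid bodies, so the numbers were not taken to pair the libraries. The replicate 1 deviations of the 2 conditions compared were correlated over all genes tested, and with 2 replicates those of replicate 2 mirror them. This correlation ran from -0.258 to 0.375 and was 0.190 and 0.0778 for the sort with and without ActA. With the replicate block, of 100 log2 fold changes 96 kept their side of the threshold, 2 lost the call (CDKN1B between the media and CCND3 in cjPSCM pre-ME without ActA) and 2 gained it (MYCN in cjPSCM pre-ME with ActA, adjusted p = 0.0353, and CDK6 for ActA in cjPSCM pre-ME, adjusted p = 0.049). The number called was 7 for the media, 5 for each cjPSCM pre-ME condition and 3 for ActA in cjPSCM pre-ME, and stayed at 0 and 2 for the sort with and without ActA. With crossed replicate numbers, added after seeing the data, the number called stayed at 6, 4 and 6 for cjPSCM pre-ME without and with ActA and soma without ActA. Each of the 10 genes had at least 32 counts in each library, and whether depth limited the calls was not tested.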
